A study of Homo sapiens with 7 samples.

Results

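Early hypoxia, at 6 and 12 h in 1% oxygen, was set against late hypoxia, at 48 and 72 h in 1% oxygen, in SK-N-BE(2), an established human neuroblastoma line. All cells were wild type, per the labels, and each time point is 1 library and 1 list of regions enriched for 5-hydroxymethylcytosine (5-hmC), called peaks here. The comparison uses 4 of the 7 samples of the series. The lists of 0 h (21% oxygen) and 24 h (1% oxygen) belong to neither side and served only as separate readouts, and the input at 21% oxygen was not analysed here. Autosomal peaks of the 4 lists were merged into 394716 regions wherever they overlapped by at least 1 bp. A region with a peak at 48 and at 72 h and none at 6 or 12 h is called late-specific, of which there were 28719, and a region with a peak at 6 and at 12 h and none at 48 or 72 h is called early-specific, of which there were 4601. The lists of a side are different times and not replicates, so disagreement within a side holds time as well as error, and it serves as the floor against which the sides are read. Nothing in the labels says whether the libraries came from separate cultures, and time in 1% oxygen cannot be told apart from time in culture.

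5-hmC is made from 5-methylcytosine by the TET enzymes, dioxygenases that use molecular oxygen, iron and 2-oxoglutarate. It is a step on the way to unmethylated cytosine and also a lasting mark, found in gene bodies and at enhancers, and it is diluted when DNA is copied, unless it is made anew. It is abundant in neurons and low in most cancers and cultured lines. The list of a library shows where captured fragments piled up, not how strongly, since it holds positions and widths alone. Gene positions and sequences for the build of the lists, hg19, were not used here, so regions are named by their coordinates.

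Late hypoxia lists were longer than early ones. Peak numbers of the 6, 12, 48 and 72 h lists were 288234, 289681, 331251 and 346595, and the lists covered 155, 152, 176 and 189 Mb. Both late lists lay above both early lists in number and in covered length. The late mean was 17.3% higher in number and 19.0% higher in covered length. The step from 6 to 12 h was 1447 peaks and that from 48 to 72 h was 15344, against 41570 from the longer early list to the shorter late one. With 2 lists a side, the exact two-sided permutation p was 0.333 for each, which is the smallest this design can give. Median peak width was 412, 403, 410 and 423 bp, so the sides overlapped in this measure (exact permutation p = 0.667). The narrowest peak of a list measured 235, 231, 232 and 242 bp. Read depth is unknown for all lists, and the part of depth and calling sensitivity in list length was not tested.

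Late-specific regions outnumbered early-specific ones, but each class was smaller than the disagreement between the lists of its own side. With all peaks, late-specific regions were more numerous than regions shared by any 1 early and 1 late list, and early-specific regions were not. The late-specific regions made up 7.28% of all regions and the early-specific ones 1.17%. Regions held by exactly 1 early and 1 late list, which both sides disagree on, numbered 4657 for 6 and 48 h, 6154 for 6 and 72 h, 4763 for 12 and 48 h and 5767 for 12 and 72 h, or 5.41% of all regions for these 4 pairs together. The late-specific number was 5.38 times their mean and the early-specific number 0.862 times it. The 6, 12, 48 and 72 h lists alone held 11136, 10350, 19720 and 36842 regions, while 212874 were in all 4 lists. The 28719 late-specific regions were thus fewer than the 56562 that only 1 late list held, and fewer than those at 72 h alone, and the 4601 early-specific regions were fewer than the 21486 that only 1 early list held. Of the regions in late lists alone, 33.7% were in both, and of those in early lists alone, 17.6%. In bases, 16.1 Mb were covered in both late lists and in no early list, 3.48 Mb the other way, and 3.36 to 5.04 Mb in each crossed pair of lists.

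**Figure D1:**
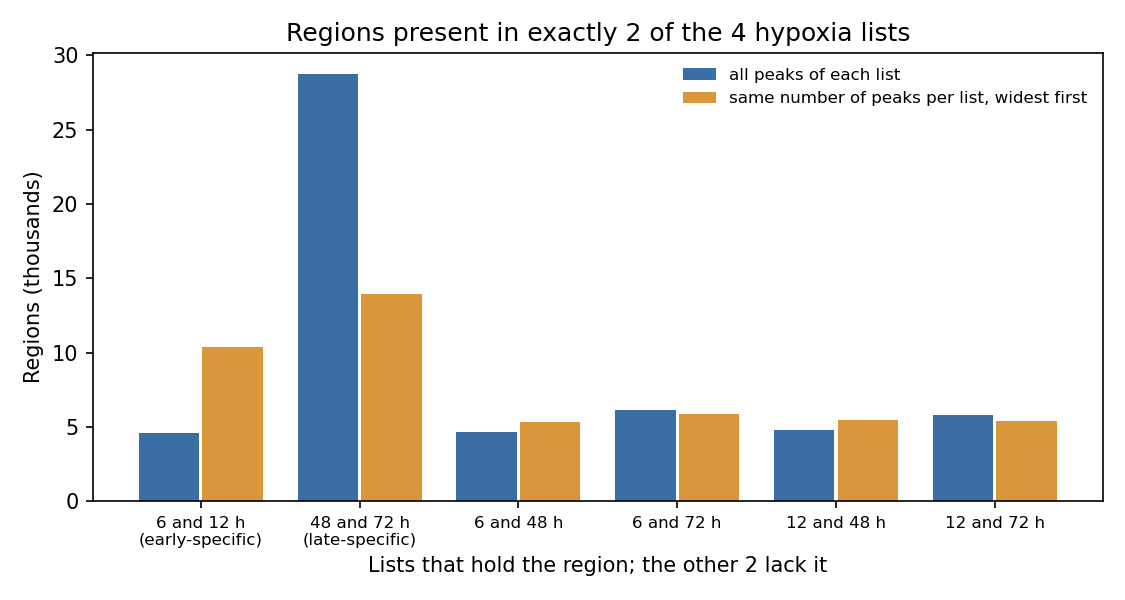
Number of regions (axis in units of 1000) that exactly 2 of the 4 hypoxia lists hold, with all peaks (blue) and with 288234 peaks per list, widest first (orange). With all peaks the late-specific bar stands at 28719 and the early-specific bar beside the crossed pairs; with equal numbers both rise above the crossed pairs.

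The gap between the sides shrank when all lists were cut to one length. With the 288234 widest peaks of each list, 13958 regions were late-specific and 10379 early-specific, while the 4 crossed pairs held 5310 to 5867 regions each. Here the late-specific number was 2.54 times the crossed mean and the early-specific number 1.89 times. This choice removes narrow peaks from the late lists in particular (the narrowest peaks kept measured 266 and 291 bp in the late lists, against 235 and 231 bp in the early ones), which by its construction raises the early-specific number. When a list was left out, fewer lists had to agree and the numbers rose by construction. There were 46749 late-specific and 15381 early-specific regions without the 6 h list, 47277 and 16081 without 12 h, 66491 and 11995 without 48 h, and 49920 and 10863 without 72 h.

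Peak by peak, the late lists departed more from the early lists than from each other, while the early lists did not. Of 48 h peaks, 22.5% had no 6 h peak (95% Clopper-Pearson interval 22.4 to 22.6%) and 22.4% no 12 h peak (22.2 to 22.5%), and 11.4% had no 72 h peak (11.3 to 11.5%). Of 72 h peaks, 26.5% had no 6 h peak and 26.5% no 12 h peak, and 16.2% had no 48 h peak. Seen from the late lists, disagreement across sides was thus larger than within the late side. A longer list tends to leave more of its peaks without a partner in a shorter one, which favours this order. Between the late lists too, the longer 72 h list had the larger share, 16.2% against 11.4%. The part of list length was not tested. From the early lists, disagreement was larger within the side than across sides. Of 6 h peaks, 14.7% had no 12 h peak, 10.3% had no 48 h peak and 10.1% had no 72 h peak, and of 12 h peaks the shares were 14.5% without 6 h, 9.85% without 48 h and 9.82% without 72 h. An early peak was therefore found more often in a late list than in the other early list, which the greater length of the late lists favours. Averaged over lists, 17.2% of peaks lacked a partner across sides and 14.2% within a side, or 16.6% and 14.3% with 288234 peaks per list. The intervals cover counting error only.

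Specific regions were narrower than regions in all 4 lists, as were all regions that some lists lacked. The median width of late-specific peaks was 290 bp in the 48 h list and 321 bp in the 72 h list, and early-specific peaks had medians of 284 bp (6 h) and 278 bp (12 h). Regions in all 4 lists had median widest peaks of 471, 460, 503 and 526 bp. In 67.8% of late-specific and 80.9% of early-specific regions the narrower of both peaks was under 300 bp, and so it was in 80.9 to 86.5% of regions of the crossed pairs, whose median peaks measured 268 to 300.0 bp. Regions of a single list had medians of 255.5 to 281 bp, so narrow peaks were not particular to the specific classes. At the other end, 521 late-specific regions had both peaks at 500 bp or more, against 23 early-specific regions and 15, 39, 12 and 29 regions for the crossed pairs of 6 and 48, 6 and 72, 12 and 48, and 12 and 72 h. In this widest class late-specific regions were 13.4 times as many as the regions of the largest crossed pair, and early-specific regions lay within the range of the crossed pairs. Among the 28525 late-specific regions with 1 peak in each late list, the 72 h peak was the wider in 66.1%, compared with 57.9% of regions in all 4 lists. For early-specific regions, the 12 h peak was the wider in 45.5%, and in 45.2% of regions in all 4 lists.

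The border of the rule touched few regions. An early peak lay within 100 bp of 494 late-specific regions (1.72%; median length 382.5 bp), and 92 merged late pairs were excluded from the rule although early peaks overlapped them by no more than 50 bp (median length 402.5 bp). On the early side, 217 regions (4.72%; median length 355 bp) had a late peak within 100 bp, and 66 were excluded by an overlap of no more than 50 bp (median length 379 bp).

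The lists of 0 and 24 h, which the rule did not use, differed between the classes. A normoxia peak was present at 21.5% of late-specific regions (6179 regions) and at 49.99% of early-specific regions (2300 regions; 95% Clopper-Pearson interval 48.5 to 51.4%). The 4 crossed pairs lay between, with 33.6 to 37.0%. Regions of a single list held a 0 h peak in 10.4% (72 h), 13.0% (48 h), 22.0% (12 h) and 21.5% (6 h). A low 0 h share thus went with the late lists and not with the late-specific class alone. At 24 h the shares were 40.3% of late-specific regions (39.8 to 40.9%) and 51.9% of early-specific regions (50.4 to 53.4%), against 40.0 to 49.5% for the crossed pairs. From 0 to 24 h the share thus rose by much for late-specific regions and little for early-specific ones. Of the late-specific regions, 14578 (50.8%) were in neither list, 7962 (27.7%) were in the 24 h list alone, 2562 (8.92%) in the 0 h list alone and 3617 (12.6%) in both. Of the early-specific regions, 1354 (29.4%) were in neither list, 947 (20.6%) in the 24 h list alone, 859 (18.7%) in the 0 h list alone and 1441 (31.3%) in both. The 0 h list is shorter than the 24 h list (280942 against 307172 peaks), and regions of 1 library are not independent, so no test was made.

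**Figure D2:**
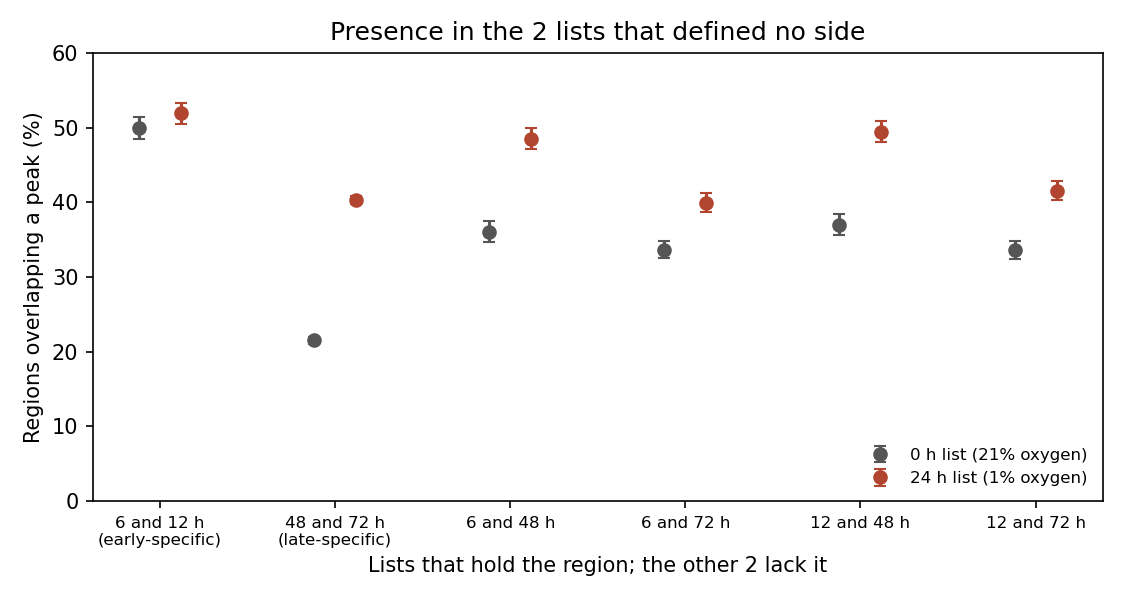
Share of regions, in percent, that overlap a peak of the 0 h list (grey) or of the 24 h list (red), for each pair of lists that holds a region alone; bars are 95% Clopper-Pearson intervals. Among these pairs, late-specific regions have the lowest 0 h share, 21.5%, and early-specific regions the highest, 49.99%.

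The order at 0 h was kept within each width class under 500 bp. With the narrower peak under 300 bp, 18.6% of late-specific and 46.6% of early-specific regions held a 0 h peak, against 31.4 to 34.9% in crossed pairs. With the narrower peak from 300 to 399 bp, the shares were 26.5%, 64.8% and 40.4 to 48.4%. At 24 h the shares in this class were 51.7% for late-specific regions, 66.3% for early-specific regions and 50.3 to 60.4% for crossed pairs. In the class of 500 bp or more, 36.1% of the 521 late-specific regions held a 0 h peak (32.0 to 40.4%) and 69.5% a 24 h peak (65.3 to 73.4%), and 12 of the 23 early-specific regions held a 0 h peak (30.6 to 73.2%), which is within the range of the crossed pairs.

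The late-specific regions with the greatest narrower peak were not free of signal in the lists on neither side. The leading one lay, in hg19, on chromosome 18 from 19720858 to 19722106, with peaks of 1044 bp (48 h) and 1216 bp (72 h). Its 0 h peak was 226 bp wide and its 24 h peak 233 bp, each the narrowest width of its list, and the nearest early peak was 36275 bp away. The next lay on chromosome 16 from 81244887 to 81245915 (1029, 1004, 266 and 363 bp at 48, 72, 0 and 24 h). The third lay on chromosome 6 from 6748152 to 6749162 (998, 1003, 236 and 508 bp), and the fourth on chromosome 18 from 66688196 to 66689208 (929, 1013, 534 and 883 bp). The fifth lay on chromosome 20 from 59138826 to 59139958 (1133, 926, 339 and 817 bp). All 5 held a peak in the 0 h list and in the 24 h list, so they were absent at 6 and 12 h alone. In these last 4 regions an early peak lay 249 to 1043 bp outside the region.

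Early-specific regions of the same rank had smaller narrower peaks. The leading one lay on chromosome 11 from 44680922 to 44681617, with 637, 649, 614 and 628 bp at 6, 12, 0 and 24 h. The next, on chromosome 2 from 16089978 to 16090648, had 671, 617, 755 and 624 bp at 6, 12, 0 and 24 h. These had like widths in 4 lists and no peak at 48 or 72 h. The third lay on chromosome 3 from 100553714 to 100554397 (634, 617, 248 and 601 bp), the fourth on chromosome 14 from 69362936 to 69363584 (593, 648, 424 and 383 bp), and the fifth on chromosome 4 from 6292598 to 6293869 (588, 724 and 601 bp at 6, 12 and 24 h, and no 0 h peak). The nearest late peak was 678 to 7944 bp from these 5 regions. Each of the 5 still held a peak at 24 h.

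Late-specific regions made up about as much of the added length as growth of peaks at regions common to all 4 lists. Late lists covered 29.2 Mb more on average. Regions in all 4 lists gave 10.0 Mb of this (34.3%), late-specific regions 9.46 Mb (32.4%), regions in 3 lists 5.55 Mb (19.1%) and regions in a single list 5.30 Mb (18.2%), while the absence of early-specific regions took away 1.39 Mb. In peak number the picture differed. Late-specific regions held on average 28818 late peaks, or 57.7% of the net gain. By the rule they hold no early peak, so all their late peaks and late length count as gain. Their share is thus no separate readout of where the gain lies. Regions in a single list gave 17538 peaks (35.1%) and regions in 3 lists 11608.5 (23.2%). Early-specific regions, with no late peak by the rule, counted as -4614.5 peaks. Regions in all 4 lists held fewer peaks late than early, with 231525 on average early and 228138 late. Among regions in all 4 lists, 2216 had at least 2 peaks in both early lists and 1 peak in both late lists, and 1117 showed the reverse.

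At regions common to all lists, late peaks were wider on average. In 181761 regions with exactly 1 peak in each list, median widths at 6, 12, 48 and 72 h were 444, 435, 473 and 492 bp. The median log2 ratio of late to early width was 0.10, against -0.02 for 12 h over 6 h and 0.04 for 72 h over 48 h. A region was called wider late when its narrower late peak exceeded its wider early peak by 25% or more, and narrower late by the reverse. By this rule 11318 regions (6.23%) were wider late and 1565 (0.861%) narrower late. Between lists of a side, where only 1 list has to differ and the fold is reached more easily, 11.2% were wider at 12 h, 14.5% wider at 6 h, 14.8% wider at 72 h and 8.42% wider at 48 h. When each width was divided by its list's median over these 181761 regions, 5661 regions were wider late and 4139 narrower. The wider share of calls went from 87.9% to 57.8%. By its construction, this division takes out the difference in median width between the lists. Without any fold, both late peaks were wider than both early ones in 63667 regions and narrower in 19037. With the same division the order turned to 32424 and 49598. Wider calls by the rule of 25% numbered 27644 without the 6 h list, 24889 without 12 h, 28660 without 48 h and 19299 without 72 h, and narrower calls 5215, 6320, 6156 and 6312, again with fewer lists that had to agree.

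**Figure D3:**
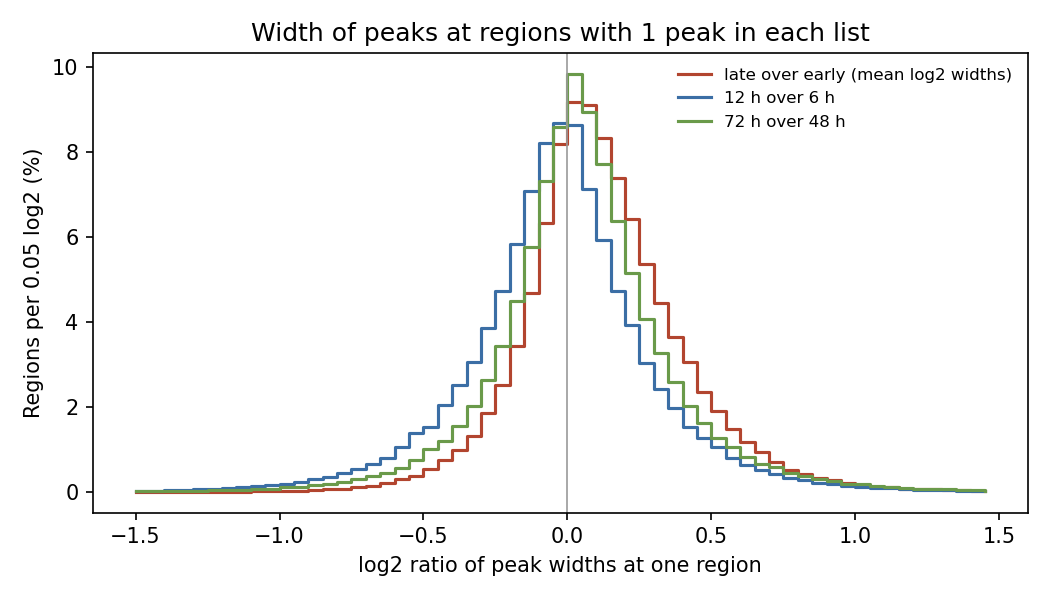
Distribution over 181761 regions of the log2 ratio of peak widths, late over early (red), 12 h over 6 h (blue) and 72 h over 48 h (green), in steps of 0.05. The red curve lies to the right of both others, with a median of 0.10, and the curves overlap widely.

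Widths in the lists of 0 and 24 h were read at called regions with 1 peak in all 6 lists. In 8475 regions wider late, median widths were 339 bp early (mean of both lists), 365 bp at 0 h, 423 bp at 24 h and 554.5 bp late. The 24 h peak was 1.22 times the early mean at the median, and the 0 h peak 1.06 times. In 1216 regions narrower late they were 547.75 bp early, 447.5 bp at 0 h, 453 bp at 24 h and 343 bp late. Both lists thus lay between the sides in either class. Early and late widths chose these regions, so a list outside the choice tends to lie between, and the position is no test. In the other 143931 regions they were 460.5 bp early, 439 bp at 0 h, 471 bp at 24 h and 491.5 bp late.

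The region with the greatest called widening lay on chromosome 12 from 30350126 to 30351230, with 283, 277, 1091 and 1079 bp at 6, 12, 48 and 72 h, a ratio of 3.81 between the nearest early and late widths. Its 0 h peak measured 243 bp and its 24 h peak 516 bp. The next 4 lay on chromosome 7 from 153824041 to 153825265 (ratio 3.66), chromosome 6 from 161827777 to 161828855 (3.54), chromosome 4 from 1362427 to 1363735 (3.46) and chromosome 22 from 48814167 to 48815030 (3.38). Some early widths there were the narrowest of their list, 235 bp at 6 h on chromosomes 7 and 6 and 231 bp at 12 h on chromosome 22. In the first 4 of the 5 widened regions the 0 h peak measured 243 to 343 bp, near the early widths, and on chromosome 22 it measured 649 bp. At 24 h the region on chromosome 6 measured 233 bp, below both early widths, and those on chromosomes 7 and 4 held 2 peaks each. The greatest narrowing lay on chromosome 2 from 129212913 to 129213979, with 1052, 1001, 387 and 368 bp at the same times, a ratio of 2.59 in the other direction, and 1045 bp at 0 h. The others lay on chromosome 2 from 65601894 to 65602685 (ratio 2.55) and from 176464076 to 176464751 (2.51), chromosome 9 from 16504831 to 16505532 (2.50) and chromosome 4 from 86953415 to 86954550 (2.45). At 0 h, 3 of the 5 narrowed regions were as wide as or near the early widths (1045, 680 and 1050 bp, the latter ones on chromosomes 9 and 4), and the others on chromosome 2 measured 423 and 290 bp. At 24 h the region from 65601894 held no peak, and those from 129212913 and on chromosome 4 held 2 peaks each.

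Proportionally, late lists gained most where 5-hmC peaks were sparse. Bins of 1 Mb were ranked by their 0 h peak number, a list on neither side, and split into 10 classes of 270 bins. In the sparsest class the lists held 1557, 1535, 2429 and 2447 peaks at 6, 12, 48 and 72 h, a late to early ratio of 1.58. In the densest they held 70973, 71895, 75127 and 76845, a ratio of 1.06. The ratio fell at each step between these classes. Ratios within a side were 0.986 (12 h over 6 h) and 1.01 (72 h over 48 h) in the sparsest class and 1.01 and 1.02 in the densest, and the highest within-side ratio of any class was 1.08, for 72 h over 48 h in the third class. The late to early ratio was above both within-side ratios in all 10 classes. With 288234 peaks per list the ratio was 1.17 in the sparsest and 0.944 in the densest class.

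Late-specific and early-specific regions followed opposite gradients. Late-specific regions were 12.8% of all regions in the sparsest class and 4.34% in the densest. Early-specific regions were 0.766% and 1.36%. Regions of the 4 crossed pairs together were 8.18% in the sparsest class and from 5.17 to 5.89% in the other 9. Relative to regions found in all 4 lists, the median distance of a late-specific region was 3.32 kb and that of an early-specific region 1.32 kb, with 1.73 to 2.16 kb for crossed pairs. Within 1 kb of such a region were 24.5% of late-specific and 42.5% of early-specific regions. Regions in a single list stood at 2.98 kb for 72 h, 2.97 kb for 48 h, 1.70 kb for 12 h and 1.68 kb for 6 h, so the distance went with the side as well as with being specific.

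**Figure D4:**
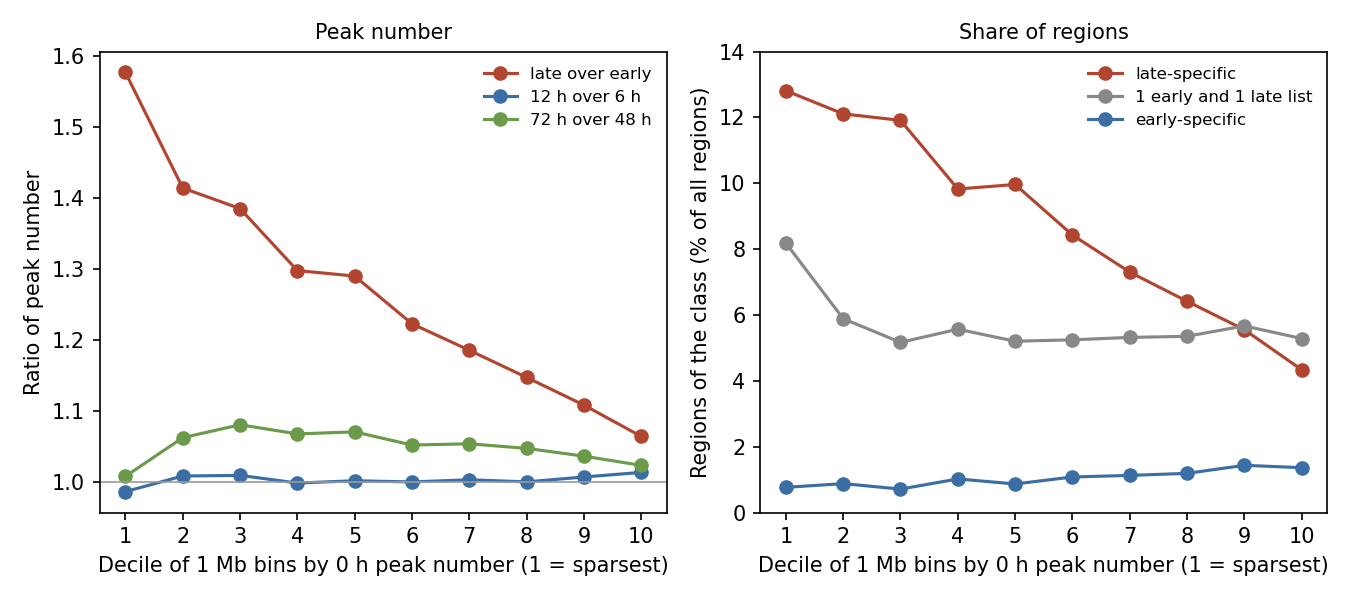
Left, ratio of peak number by class of 1 Mb bins, ranked by 0 h peak number, for late over early (red), 12 h over 6 h (blue) and 72 h over 48 h (green). Right, share of all regions in percent that were late-specific (red), early-specific (blue) or in any of the 4 crossed pairs (grey); the late to early ratio falls from 1.58 to 1.06 and the late-specific share from 12.8% to 4.34%.

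By chromosome, the late to early ratio of peak number ranged from 1.11 on chromosome 22 to 1.26 on chromosome 18. The ratio of 12 h to 6 h ranged from 0.993 to 1.02 and that of 72 h to 48 h from 1.02 to 1.07, so that each autosome differed more between sides than within them. Late-specific regions made up 8.95, 8.85, 8.74 and 8.69% of regions on chromosomes 18, 4, 13 and 6, the highest shares, and 5.61% on chromosome 20, the lowest. The early-specific share was highest on chromosomes 18 and 20 (1.56 and 1.49%) and lowest on chromosome 21 (0.953%). Late-specific regions per early-specific one were most on chromosomes 4 and 6 (8.78 and 8.77) and fewest on chromosome 20 (3.77).

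A bin was called higher late when, per list total, its lower late number exceeded its higher early number by 25% or more and the raw numbers were at least 10 peaks apart. This held for 118 of 2700 bins (4.37%), on 18 of the 22 autosomes, and 0 bins (0%) were lower by the reverse rule. Since late lists are longer, the raw difference is reached more easily by higher bins. Within a side, the same fold and difference called 3 bins higher and 4 lower at 12 h against 6 h, and 11 higher and 2 lower at 72 h against 48 h. Higher bins numbered 185 without the 12 h list and 227 without 48 h, and 58 with 288234 peaks per list, while leaving out a list gave 1 or 2 lower bins. Called bins had a median of 41 early peaks against 95 over all bins. The rule itself used the early number, so this is no separate readout of where called bins lie. The 24 h number lay between the sides in 107 of the 118 bins, and the 0 h number lay below both late numbers in all 118. Per list total, the median of the called bins was 1.44 times the early mean in the late lists, 1.16 times at 24 h and 0.970 times at 0 h. Early and late numbers chose these bins, so a list outside the choice tends to lie between or below the late numbers. The positions of the 0 and 24 h lists are thus no test.

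The called bins that differed most were on chromosome 13 from 87 to 88 Mb, with 43, 36, 87 and 90 peaks at 6, 12, 48 and 72 h, and chromosome 16 from 60 to 61 Mb, with 31, 27, 65 and 73. Next were chromosome 8 from 84 to 85 Mb (41, 39, 79 and 95), chromosome 4 from 93 to 94 Mb (50, 53, 93 and 106) and chromosome 10 from 57 to 58 Mb (56, 51, 92 and 113). These 5 bins held 23 to 28 late-specific regions each and at most 1 early-specific region, which the rule that called them favours. Over all regions, 7.28% were late-specific and 1.17% early-specific, and the number of all regions in these bins is not given here. In these 5 bins the 24 h list had 62, 42, 54, 63 and 66 peaks and the 0 h list 40, 24, 34, 50 and 50. All 5 stood between the sides at 24 h, which their choice by early and late numbers favours. The bins richest in late-specific regions, singled out after their values were seen, were neighbours on chromosome 5, from 23 to 24 Mb and from 24 to 25 Mb, with 34 each.

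**Figure D5:**
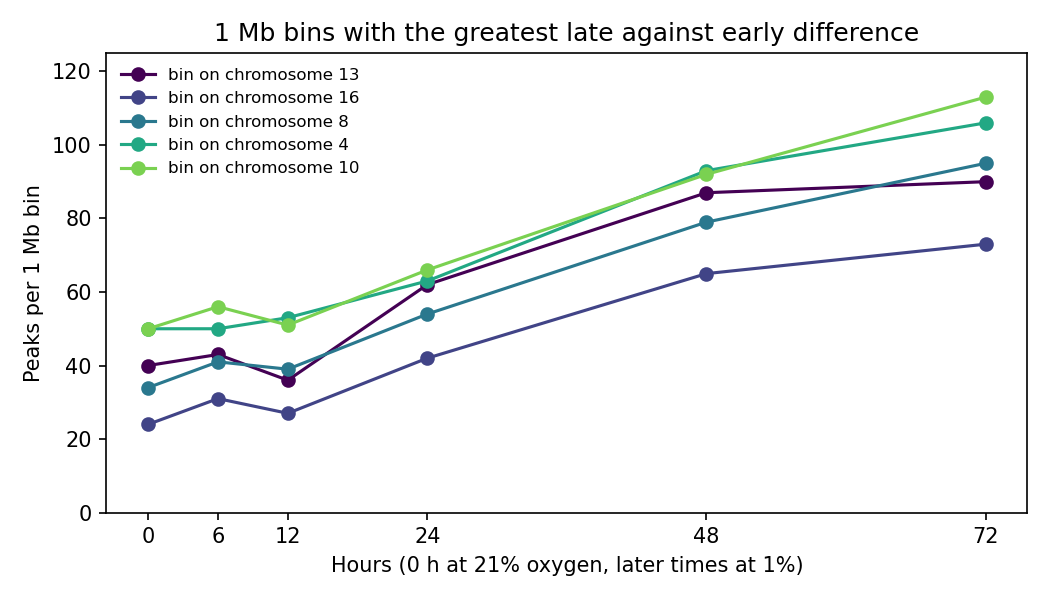
Peaks per 1 Mb bin at each time in the 5 called bins with the greatest difference between sides, named by chromosome, with hours on the x axis. Numbers at 6 and 12 h run from 27 to 56 and those at 48 and 72 h from 65 to 113. In each bin 24 h lies between, which the choice of bins by early and late numbers favours.

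Bins with fewer peaks late than early were rare in raw number, which the greater length of the late lists favours. In 11 bins (0.407%) both late raw numbers were below both early numbers, and in 2399 (88.9%) both were above. The lowest score of all bins was on chromosome 16 from 85 to 86 Mb, where the lists held 352, 348, 330 and 329 peaks at 6, 12, 48 and 72 h, and 368 at 0 h and 347 at 24 h. Per list total, both late numbers were above both early ones in 1110 bins (41.1%) and below them in 688 (25.5%). The bin with the most early-specific regions, 19, was on chromosome 2 from 16 to 17 Mb, with 169, 171, 156 and 167 peaks and 10 late-specific regions, and the early-specific region with the second greatest narrower peak lies in it. The next bins, on chromosome 3 from 29 to 30 Mb and chromosome 7 from 82 to 83 Mb, held 11 each. These bins were singled out after their values were seen.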

How the data were processed

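Each deposited list gives the chromosome, start and end of every peak of 1 sample, with no header, height, score or read count. Per the submitters' processing notes, the tools were BWA 0.7.17, MACS2 and HTSeq and the genome build was hg19; how each was used, the peak threshold and the use of the input are not given in the sources at hand. DNA was sheared, 5-hmC was tagged with a glucose carrying an azide, biotinylated and captured on streptavidin, per the labels' protocols. Read depth is unknown, and a deeper library can give a longer list.

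Autosomes alone were used. Samples were grouped by time in their labels. Peaks were merged when they overlapped by at least 1 bp, bins are of 1 Mb with peaks counted by midpoint, and thresholds of size stand in place of tests. The members, rules and alternatives were chosen with earlier results of these data known. Named regions are the 5 with the greatest narrower peak on each side, the 5 called regions with the greatest change in width each way, and the 5 called bins with the greatest difference of square roots of the number per list total. Gene lists and cell type markers were drawn up and not used, because the gene table at hand is of another build, and no sequence of hg19 was used. Functions were tested on simulated data (93000 peaks), and recovered 21 of 21 known values to within 0.5%. The software was Python 3.11.15 with Matplotlib 3.10.9, pandas 2.3.3, SciPy 1.17.1 and NumPy 2.4.6.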

Additional observations from a re-analysis of the deposited data

Results flagged for a closer look

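Peaks outside the autosomes took no part in the comparison. In the 6, 12, 48 and 72 h lists chromosome X held 3905, 3841, 4932 and 5142 peaks, a late mean 30.1% above the early mean. Unplaced or alternate contigs held 382, 397, 484 and 486 peaks, a late mean 24.5% above the early mean. In both, the late lists lay above the early lists (exact two-sided permutation p = 0.333 each, the smallest that 2 lists a side can give), as on the autosomes.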

How the results depend on the processing

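Late-specific regions outnumbered early-specific ones in all 12 settings run, by 1.34 to 8.43 times. Late-specific regions numbered 11495 with peaks of at least 500 bp and 13958 with the same number of peaks per list, and 46749 to 66491 with each list left out. Early-specific regions numbered 2234, 10379 and 10863 to 16081 in the same settings, and 11370.5 peak by peak when they had to share 0.5 of their lengths. The setting of at least 500 bp dropped narrower peaks from every list before merging. A region counted there can thus hold a narrower peak of the other side. By the main rule, 521 late-specific and 23 early-specific regions had both peaks at 500 bp or more. Mean disagreement within a side was 14.2%, or 21.0% when peaks had to share 0.5 of their lengths and 17.9% with peaks of at least 500 bp, against 17.2, 25.4 and 21.0% across sides. Regions wider late numbered 2928 at 1.5-fold and 28529 with each list's narrowest width subtracted. They numbered 5661 with widths over their list's median at regions with 1 peak in each list, and 19299 to 28660 with each list left out. Regions narrower late numbered 303, 6511, 4139 and 5215 to 6320 in the same settings. Bins higher late numbered 18 at 1.5-fold, 9 at 5 Mb, 58 with the same number of peaks per list and 148 to 227 with each list left out, and bins lower late 1 by covered length and 1 to 2 with each list left out. With peaks of at least 500 bp, the 0 h list held 19.9% of late-specific and 46.0% of early-specific regions, and the 24 h list 38.8% of late-specific ones. The sparsest class had a ratio of 1.54 ranked by the 24 h list and 1.17 with the same number of peaks per list, and the densest 0.944 with the latter. Of 84 alternatives, 34 stayed within the tolerance set (1.5 times for counts, the counting interval for shares, the within-side spread for ratios, the sign for number and covered length) and 50 did not. In the densest class the ratio went from above 1 to below 1. Without a fold, the order of wider and narrower regions turned when widths were divided by each list's median at these regions. That division takes out the median difference between lists. The causes were not tested. No paired analysis was possible because each time is 1 library. Alternatives by score were not run, since the lists hold none.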
